A study of Homo sapiens with 5 samples.

Results

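The genes described here are the keratins, the proteins that form the intermediate filaments of epithelial cells, in ovarian clear cell carcinoma cells that were sensitive or resistant to inhibition of the histone methyltransferase EZH2. They were chosen by symbol, as protein-coding genes named KRT plus a number, with keratin-associated proteins and pseudogenes left out. Of 55 such genes in the annotation, 38 had a row among the 30476 genes of the count table, 19 of type I and 19 of type II, and the other 17 (10 of type I and 7 of type II) were not analysed here. The clone difference in KRT19 was known when the genes were chosen, so its test is given beside the values as a description.

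RNA-seq was done on 5 libraries of TOV21G, an established human ovarian clear cell carcinoma line that carries ARID1A mutation in every group used here. The groups were parental cells (1 library, with no treatment named in its title) and untreated EZH2 inhibitor-resistant (EIR) clone 3 and clone 4 (1 library each). The other groups were the same 2 clones treated with the EZH2 inhibitor GSK126 (1 library each). The clones had been picked after selection in GSK126 raised in steps from 5 to 20 uM, and the dose and time of the treated libraries are not given in the sources used here. Each clone is a single line, so its 2 libraries are not independent clones, and the parental cells have no replicate.

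Keratin filaments are built from pairs of 1 acidic type I chain and 1 basic type II chain, and a chain without a partner is normally degraded. Simple epithelia, including those of the female reproductive tract, are known for KRT8 with KRT18, and many also carry KRT7 and KRT19. Stratified epithelia and hair use other pairs, such as KRT5 with KRT14 and the hair keratins. The type I genes lie together on chromosome 17 and the type II genes on chromosome 12, where KRT18 is the only type I gene.

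The libraries held 25479238 to 30764963 estimated counts, and levels are given as normalized read counts, scaled between libraries by DESeq2 size factors. PAX8, a transcription factor of Müllerian epithelium, ran from 3083 to 4523 in the 5 libraries. EPCAM, an epithelial surface adhesion protein, was at 400.9 in parental cells and at 394.4 and 492.2 in clone 3, but at 0 and 1.06 in clone 4, so this marker was absent or nearly so from clone 4. In bulk RNA, fewer cells that express a gene and less RNA per cell cannot be told apart. Of the 6 clear cell markers tested, 3 of them keratins, 0 were called higher and 3 lower in clone 4 than in clone 3 (EPCAM, KRT8 and NAPSA, an aspartic protease, at 2.01 in parental cells, 49.1 and 49.4 in clone 3, and 6.10 and 4.23 in clone 4), beside 3.31% of all genes called higher and 6.52% called lower. The 5 measured markers of blood and endothelial cells summed to between 19 and 39 raw counts per library.

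Among the 38 keratins, 17 (10 of type I and 7 of type II) averaged 10 or more normalized counts, and KRT27 reached 10 in at least 1 library. The other 20 stayed under 10 in every library, with a highest single raw count of 8, and 11 of these did not pass 3 counts in any library. All values below are for the 17 genes and KRT27. Coordinates are those of GRCh37 with GENCODE release 44.

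**Figure D1:**
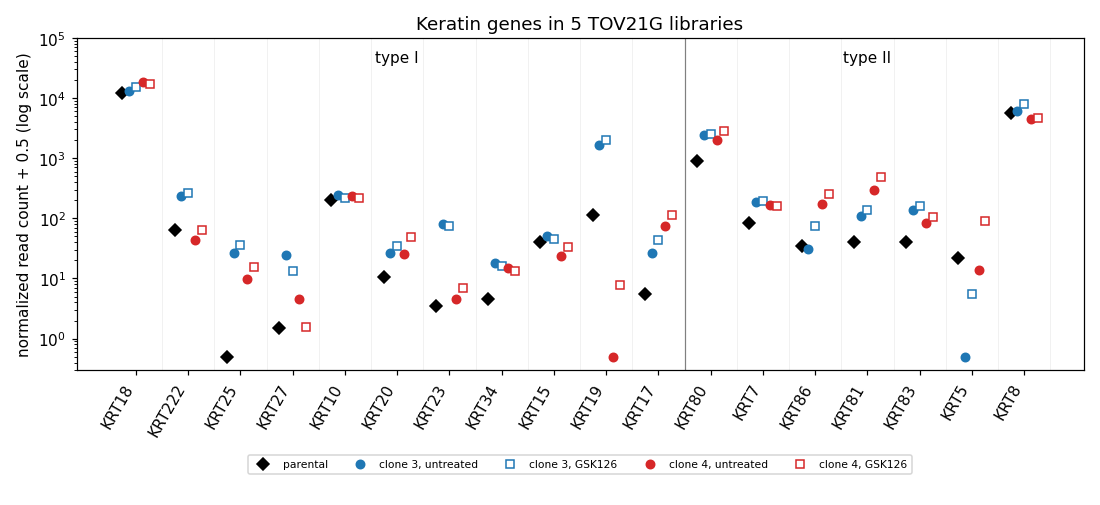
Normalized read counts (plus 0.5, log axis) of 18 keratin genes, with type I on the left and type II on the right, each in the order of its position on the chromosome. Each point is 1 library. KRT18 and KRT8 lie highest in all 5 libraries, and KRT19 falls from 1632 and 1998 in clone 3 to 0 and 7.41 in clone 4.

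The sequences before the start sites show a feature of this family that the choice of genes did not use. RefSeq start-site sequences (GRCh38.p14) matched 7 of the 18 described keratins, namely KRT25, KRT27, KRT10, KRT20, KRT34, KRT5 and KRT8. Searched on both strands of the 250 bases before the start, the letters TATAAA (the core of a TATA box) were found in 10 of 23 keratin sequences, from 22 genes, against 10.7% of all 35116 sequences of that length. The letters GGGCGG (a GC box) were found in 3 of 23, against 42.6% of all. CG dinucleotides numbered 0 to 7 per keratin sequence with a median of 2, against a median of 11 over all sequences. The last 80 bases before the start are printed for the 4 described keratins that held TATAAA (in capitals) and for 2 that did not. The positions, all on the minus strand of GRCh38.p14, are chr17:40755332-40755411 for KRT25, chr17:40782551-40782630 for KRT27, chr17:40822615-40822694 for KRT10, chr17:41382307-41382386 for KRT34, chr17:40885243-40885322 for KRT20 and chr12:52520395-52520474 for KRT5.
KRT25: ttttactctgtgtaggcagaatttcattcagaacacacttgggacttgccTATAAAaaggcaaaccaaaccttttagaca
KRT27: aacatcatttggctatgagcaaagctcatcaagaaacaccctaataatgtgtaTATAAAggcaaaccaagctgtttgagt
KRT10: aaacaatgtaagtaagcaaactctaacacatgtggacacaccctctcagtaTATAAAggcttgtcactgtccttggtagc
KRT34: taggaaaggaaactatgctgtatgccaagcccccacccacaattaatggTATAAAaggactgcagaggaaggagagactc
KRT20: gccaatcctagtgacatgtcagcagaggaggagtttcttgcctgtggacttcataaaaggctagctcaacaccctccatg
KRT5: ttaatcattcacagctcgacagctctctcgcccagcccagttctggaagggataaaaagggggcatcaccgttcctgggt
The TATAAA began 30 bases before the start of KRT25, 27 before KRT27, 29 before KRT10 and 31 before KRT34. Of these 4 genes, KRT25 was called higher in both clones than in parental cells. KRT10 and KRT34 passed no test and KRT27 no DESeq2 test, as given with their values below. All 4 genes were above the parental library in all 4 EIR libraries, though KRT27 only at 1.06 in treated clone 4 against 1.01. Whether these genes differ from each other was not tested.

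The pair KRT18 and KRT8 made up most keratin RNA in every library. KRT18 (ENSG00000111057, chromosome 12, 53342655 to 53346690, plus strand), the type I partner of the pair, was at 11981 normalized counts in parental cells, 13250 and 15197 in untreated and treated clone 3, and 18326 and 17186 in untreated and treated clone 4. Both clone 4 libraries were above all the others. KRT18 rose 1.48-fold in clone 4 against parental (log2 fold change 0.57, SE 0.16, DESeq2 adjusted p = 0.0027), and the value for clone 3 was 0.25 (SE 0.16, DESeq2 adjusted p = 0.2782).

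KRT8 (ENSG00000170421, chromosome 12, 53290971 to 53343738, minus strand), the type II partner, was at 5573 in parental cells, 6133 and 8080 in clone 3, and 4419 and 4582 in clone 4, untreated before treated. Clone 3 was above and clone 4 below the parental library. Against the parental library the log2 fold change was 0.35 in clone 3 (SE 0.19, DESeq2 adjusted p = 0.1710) and -0.31 in clone 4 (SE 0.19, DESeq2 adjusted p = 0.2268), and neither passed the test. Between the clones, KRT8 was 1.57-fold lower in clone 4 (log2 fold change -0.65, SE 0.17, DESeq2 adjusted p = 0.0028), a call that was lost without the treated clone 3 library and the treatment covariate (0.3821) and held without the covariate alone.

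The ratio of the pair differed between the clones. Per kb of the canonical transcript, KRT8 was 0.368 times KRT18 in parental cells, 0.367 and 0.421 times in clone 3, and 0.191 and 0.211 times in clone 4. The 2 clones did not overlap and the parental library lay at the level of clone 3. KRT8 and KRT18 overlap on opposite strands, and the use of strand in counting is not stated. Of the counts of gene and pseudogenes together, the 21 pseudogene rows named for KRT8 held 3.91% to 7.48%, and the 28 named for KRT18 held 0.395% to 0.945%. Together KRT8 and KRT18 took 91.8% of keratin counts in parental cells, 78.6% and 79.9% in clone 3, and 87.7% and 83.1% in clone 4.

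**Figure D2:**
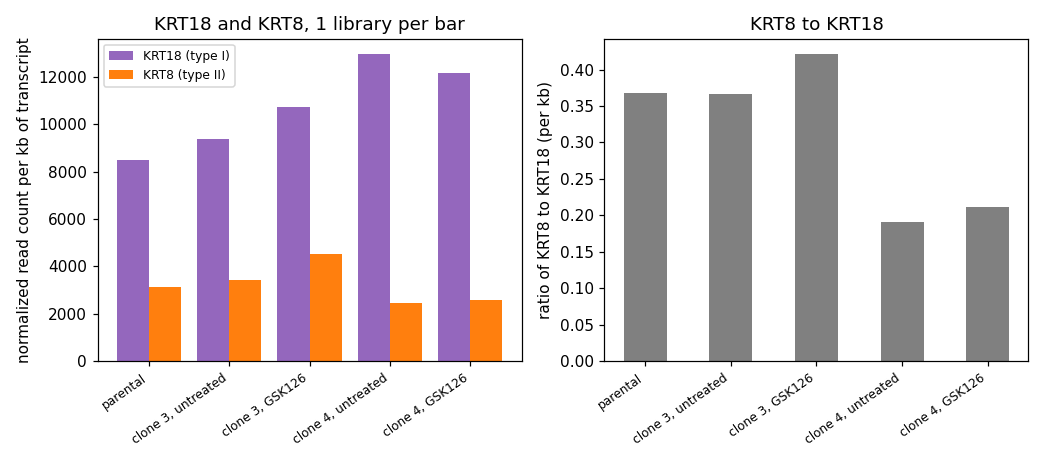
Left, KRT18 and KRT8 as normalized read counts per kb of canonical transcript, 1 library per bar. Right, their ratio, which was 0.367 or more in parental and clone 3 cells and 0.211 or less in clone 4.

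Summed per kb over all type I and all type II genes, with the median transcript length of each gene, the type II to type I balance was 0.658 in parental cells, 0.565 and 0.625 in clone 3, and 0.403 and 0.473 in clone 4. Type I chains thus exceeded type II chains in RNA in every library. The balance in clone 4 was 0.737 times that in clone 3, with an SD of 0.0987 from the spread between the 2 libraries of each clone. With canonical transcript lengths, the balance was 0.399 in parental cells, 0.397 and 0.438 in clone 3, and 0.256 and 0.31 in clone 4. The level, and the place of parental cells beside clone 3, thus depend on the length used. No test was made, because 2 libraries against 2 cannot reach significance by permutation.

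KRT19 (ENSG00000171345, chromosome 17, 39679869 to 39684560, minus strand), a type I keratin of simple epithelia and the smallest of the family, showed the widest range on a fold scale between the clones. It was at 112.8 normalized counts in parental cells (112 raw counts), 1632 and 1998 in untreated and treated clone 3 (1763 and 2022 raw), and 0 and 7.41 in untreated and treated clone 4 (0 and 7 raw). Clone 3 was above the parental library and clone 4 below it, with no overlap. By counts, clone 3 held 498 times the level of clone 4 (exact 95% interval 242 to 1240, for counting error only).

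In the fit across all genes, KRT19 was lower in clone 4 than in clone 3 (log2 fold change -10.19, SE 2.10, DESeq2 adjusted p = 3.758e-05), a size that depends on the treatment of the count of 0. The adjusted p was between 1.468e-40 and 0.2628 over 11 other settings, and passed in 9 of them. The exceptions were the 2 fits without a clone 3 library, with 0.2199 when the untreated clone 3 library was left out and 0.2628 without the treated one. Those fits had no treatment covariate, whose removal alone kept the call, and 1 clone 3 library, whose spread was taken from clone 4.

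Set against the parental library, KRT19 was lower in clone 4 (log2 fold change -4.93, SE 2.03, DESeq2 adjusted p = 0.0464), and the parental level was 31.1 times that of clone 4 by counts (exact 95% interval 14.6 to 79.1). That call passed in 6 of 10 other settings and was lost with total count scaling, with the GC correction and without either clone 3 library. The fitted value was -9.23 without the treated clone 4 library and -3.94 without the untreated one. In clone 3 the level was 16 times the parental one by counts (exact 95% interval 13.3 to 19.5) and the fitted log2 value was 4.01 (SE 1.95), which did not pass (DESeq2 adjusted p = 0.1129). edgeR gave an adjusted p of 5.742e-04 for the same contrast. Both contrasts use the same parental library.

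By level per kb, KRT19 came next after KRT18 and KRT8 in both clone 3 libraries, with 1174 and 1438 normalized counts per kb. In parental cells it had rank 5, at 81.2, below KRT80 and KRT10 as well. No pseudogene named for KRT19 had a row in the table.

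The measured genes nearest to KRT19 did not share a difference of its size, while some farther away were lower in clone 4. Among the 11 other expressed genes within 500 kb (averaging 100 or more normalized counts), the median log2 fold change of clone 4 against clone 3 was -0.02, beside -0.04 over all 11564 expressed genes. All 11 lay on 1 side of KRT19, at 160.6 to 488.8 kb, so only keratins were measured on the other side within 500 kb. JUP, which encodes plakoglobin of the desmosome, was the only 1 of the 11 called lower. KRT15, the basal-cell keratin whose gene is next to KRT19, was at 40.29 in parental cells, 49.99 and 44.47 in clone 3, and 23.4 and 32.8 in clone 4, and its clone difference of -0.77 (SE 0.75) did not pass the test. KRT17, on the other side, had a value of 1.47 (SE 0.59) in the opposite direction, with DESeq2 adjusted p = 0.0987. Within 1000 kb, 4 of 21 other expressed genes were called lower and 0 higher, beside 829 lower and 524 higher of all 11564. Apart from JUP these were STAT5B (-2.85, SE 0.96), STAT3 (-0.87, SE 0.18) and CAVIN1 (-2.93, SE 0.19), named after their values were seen.

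**Figure D3:**
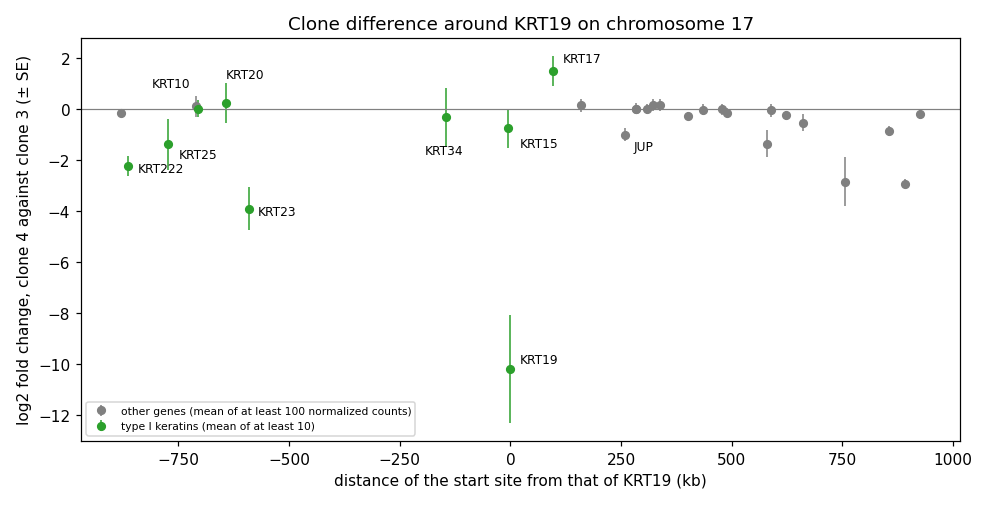
DESeq2 log2 fold change of clone 4 against clone 3 (± SE) for genes by distance of their start site from that of KRT19 in kb. KRT19 lies at -10.19, KRT15 beside it at -0.77 and KRT17 at 1.47, while the 11 other genes (grey) within 500 kb lie between -1.01 and 0.16.

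KRT23 and KRT222, 2 more type I genes of the cluster, were also higher in clone 3 than in clone 4. KRT23 (ENSG00000108244), an inducible keratin of simple epithelia, was at 3.02 in parental cells, 81.5 and 73.1 in clone 3, and 4.07 and 6.35 in clone 4. Clone 4 was close to the parental library and clone 3 stood above both. It was 25.6 times the parental level in clone 3 by counts (exact 95% interval 8.61 to 126), and the fitted log2 difference was 4.68 (SE 1.16, DESeq2 adjusted p = 4.584e-04). The difference of clone 4 from clone 3 was -3.91 (SE 0.83, DESeq2 adjusted p = 7.738e-05).

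KRT222 (ENSG00000213424), a type I gene at the edge of the cluster, was also highest in clone 3. It was at 62.45 in parental cells, 232.4 and 261.9 in clone 3, and 43.74 and 62.42 in clone 4. The rise in clone 3 was 3.96-fold against parental (DESeq2 adjusted p = 2.682e-04) and clone 4 was 4.73-fold lower than clone 3 (log2 fold change -2.24, SE 0.41, DESeq2 adjusted p = 2.275e-06). Both genes passed in all 11 other settings of the clone comparison.

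The inner root sheath keratins KRT25 and KRT27 were low. KRT25 had 0 counts in the parental library, 25.92 and 35.58 normalized counts in clone 3, and 9.16 and 14.8 in clone 4. Taking 3 counts as the floor for the parental library, this was at least 10.2-fold higher in clone 3 (DESeq2 adjusted p = 0.0078) and at least 3.97-fold higher in clone 4 (DESeq2 adjusted p = 0.0342). KRT27 had 1.01 normalized counts in parental cells, 24.1 and 12.8 in clone 3, and 4.07 and 1.06 in clone 4. It passed no DESeq2 test, and edgeR called it higher in clone 3 against parental with an adjusted p of 0.0431 and lower in clone 4 against clone 3 with 0.0335.

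KRT17 (ENSG00000128422), a type I keratin of basal and wounded epithelium, rose in both clones. It was at 5.04 in parental cells, 25.9 and 42.5 in clone 3, and 75.3 and 114.3 in clone 4. All 4 EIR libraries were above the parental one and clone 4 was above clone 3. The log2 fold changes against parental were 2.76 (SE 0.95, DESeq2 adjusted p = 0.0159) in clone 3 and 4.23 (SE 0.94, DESeq2 adjusted p = 6.164e-05) in clone 4. The parental value rests on 5 raw counts, which by counting error allows a ratio of clone 4 to parental of 7.89 to 58.4.

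The remaining type I genes passed no test in any comparison. KRT10, the keratin of differentiated epidermis, was at 198.4 in parental cells and between 216.4 and 240.7 in the 4 EIR libraries, and its clone difference was 0.00 (SE 0.33). KRT20, of gut and urothelium, was at 10.07 in parental cells and 25.4 to 48.7 in EIR cells. KRT34, a hair keratin, was at 4.03 in parental cells and 12.7 to 17.6 in EIR cells. KRT10, KRT20 and KRT34 were above the parental library in all 4 EIR libraries without passing the test.

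Among type II genes, KRT80 had the most certain rise. KRT80 (ENSG00000167767, chromosome 12, 52562780 to 52585798), a keratin of differentiating epithelia, was at 910.5 in parental cells, 2439 and 2523 in clone 3, and 2005 and 2790 in clone 4. The level was 2439 ± 325.8 in EIR cells (SD, n = 4), 2.68-fold above parental (log2 fold change 1.42, SE 0.24, DESeq2 adjusted p = 2.411e-07). This call passed in all 11 other settings, edgeR included, and the clones did not differ by more than their spread (-0.07, 95% interval -0.45 to 0.30).

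KRT7, the usual type II companion of KRT8 in ducts and the ovary, was at 81.58 in parental cells, 184.2 and 193.7 in clone 3, and 165.8 and 158.7 in clone 4. It was 2.15-fold higher in EIR cells (log2 fold change 1.11, SE 0.33, DESeq2 adjusted p = 0.0048). The call was lost with edgeR (adjusted p 0.0645) and with the 2 libraries of a clone added together (0.2136). It was also lost without the untreated clone 3 library (0.0614) and without the treated one (0.0720). In clone 4 alone the adjusted p of KRT7 was 0.0591. The 3' end of KRT7 overlaps KRT86 on the same strand.

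The hair keratins KRT81, KRT86 and KRT83, which neighbour KRT7, differed in which clone was higher. KRT81 (ENSG00000205426) was at 40.29 in parental cells, 110.2 and 136.4 in clone 3, and 295 and 486.7 in clone 4. The levels rose from parental through clone 3 to clone 4 without overlap. The log2 fold changes against parental were 1.61 (SE 0.47, DESeq2 adjusted p = 0.0032) in clone 3 and 3.28 (SE 0.46, DESeq2 adjusted p = 3.589e-11) in clone 4, and clone 4 was 3.08-fold above clone 3 (log2 fold change 1.62, SE 0.33, DESeq2 adjusted p = 2.676e-05).

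KRT86 (ENSG00000170442) was at 34.24 in parental cells, 30.55 and 75.11 in clone 3, and 172.9 and 256 in clone 4. Only clone 4 was above the parental library in both of its libraries, at 6.26-fold (DESeq2 adjusted p = 1.167e-04), and it was 4.32-fold above clone 3 (log2 fold change 2.11, SE 0.44, DESeq2 adjusted p = 5.632e-05), a call lost without the untreated clone 3 library and the treatment covariate (0.0800). The value was 2.78 without the treated clone 3 library and the covariate, and the call held without the covariate alone. KRT81 lies inside the span of KRT86 on the other strand, and the 3 hair keratins are near copies of each other, so the split of reads among them is uncertain. A sum of KRT81 and KRT86 does not depend on how reads were split between those 2. It was 74.53 in parental cells, 140.7 and 211.5 in clone 3, and 467.9 and 742.7 in clone 4.

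KRT83 had another order. It was at 40.29 in parental cells, 136.1 and 162.1 in clone 3, and 82.4 and 103.7 in clone 4, and the rise of clone 3 was 3.7-fold (DESeq2 adjusted p = 0.0024). For clone 4 the adjusted p was 0.0689, and the clone difference of -0.69 (SE 0.44) did not pass the test.

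KRT5, the type II keratin of basal cells, was low and uneven. It was at 21.15 in parental cells, 0 and 4.94 in untreated and treated clone 3, and 13.2 and 89.9 in untreated and treated clone 4. The treated clone 4 library was alone above the parental one. KRT5 was higher in clone 4 than in clone 3 (log2 fold change 4.72, SE 1.24, DESeq2 adjusted p = 0.0025), by a ratio of 21.3 in counts (exact 95% interval 8.81 to 66.9). The call passed in 7 of 10 other settings. It was lost without the treatment covariate (adjusted p 0.2175), which the fits without a library also lacked. Those fits gave 3.36 without the untreated clone 3 library (0.1520), 5.19 without the untreated clone 4 library (0.3891) and 8.21 without the treated clone 3 library (0.0135), and the fit without the treated clone 4 library gave no adjusted p. The size of the difference is therefore poorly fixed.

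Over the family, the keratins summed to 19125 normalized counts in parental cells, 24667 and 29128 in clone 3, and 25938 and 26209 in clone 4. Of 17 keratins with an adjusted p, 6 were called higher in EIR against parental (KRT80, KRT7, KRT17, KRT81, KRT25 and KRT83) and 0 lower, beside 12.4% of all 16288 genes called higher and 13.2% called lower. The median log2 fold change was 1.59, against 0.00 over all genes. edgeR called 1 of them, KRT80. That fit counts 4 libraries of 2 clones as replicates. With the libraries of each clone summed, KRT80, KRT17 and KRT81 kept their calls, and KRT7 (adjusted p 0.2136), KRT83 (0.1656) and KRT25 (0.0721) lost them. The genes with an adjusted p are those above the low-count filter of DESeq2, not the whole family. That filter uses the mean over all 5 libraries. KRT25, KRT23, KRT17 and KRT34, all under 10 in parental cells, passed it through their EIR libraries. The 6 calls include KRT25 and KRT17, and the median of 1.59 includes them all, so neither is independent of that filter. In clone 3, 8 of 18 were called higher (4 of type I and 4 of type II) and 0 lower, beside 14.7% and 14.5% of all genes. In clone 4, 6 of 17 were called higher and 1 lower, beside 14.7% and 18.3% of all genes. Leaving out a clone 3 library reduced these counts. Clone 3 against parental then kept KRT222, KRT25, KRT80 and KRT81 without the untreated library and KRT23 and KRT80 without the treated one, and clone 4 against parental kept KRT17, KRT80, KRT81 and KRT86 without either. For EIR against parental, KRT7 and KRT83 were lost without either clone 3 library.

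These 3 comparisons share the parental library. All 4 EIR libraries were above the parental library for 12 of the 18 genes and below it for 0, where 33.4% and 36.6% of the 16248 genes averaging 10 or more normalized counts did so. KRT25, KRT27, KRT23, KRT34 and KRT17 were under 10 in parental cells and entered the 18 through EIR libraries. Their place above the parental library was thus partly set by the choice of genes. KRT27 also averaged under 10, unlike the 16248 genes. For EIR against parental, the p-values measure the spread between the 4 EIR libraries. For each clone against parental, they measure the spread between the untreated and treated libraries within the clones. Spread between clones does not enter those p-values, and the parental cells had no replicate.

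**Figure D4:**
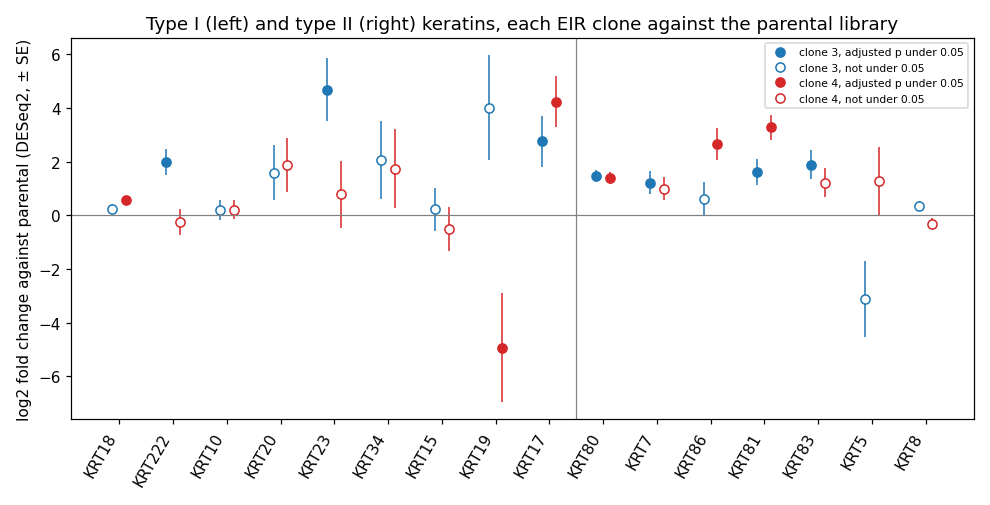
DESeq2 log2 fold change (± SE) of clone 3 and clone 4 against the 1 parental library for 16 keratins, filled where the adjusted p was under 0.05. KRT80 and KRT81 are filled for both clones, and KRT19 lies at 4.01 in clone 3 and -4.93 in clone 4. KRT25 (0 parental counts) and KRT27 (1 parental count) are left out.

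Between the clones, 3 of 18 keratins were called higher in clone 4 (KRT81, KRT86 and KRT5, all of type II) and 4 lower (KRT19, KRT222 and KRT23 of type I, and KRT8 of type II), beside 3.31% of 17695 genes called higher and 6.52% called lower. The median over type I genes was -0.77 and that over type II genes -0.07, against 0.00 over all genes. KRT19, KRT23 and KRT27 were under 10 in both clone 4 libraries, and KRT5 in both clone 3 libraries. They passed the low-count filter through the other clone. The calls and medians include such genes, so neither is independent of that filter. The difference in KRT19 was also known when the genes were chosen. The 2 clones did not overlap for 15 of the 18 genes, beside 61.7% of the 16248 genes averaging 10 or more. KRT27 averaged under 10, unlike the 16248 genes.

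Treatment of EIR cells with GSK126 changed no keratin past the test. DESeq2 called 0 of 38 keratins, beside 0.00335% of all genes called (1 of 29847), and 0 keratins had an unadjusted p under 0.05. edgeR called 0 as well, with 0 at an unadjusted p under 0.05. Within the clones, 11 of 18 keratins were higher in the treated library in both, 3 were lower in both and 4 went opposite ways. The same count was not made over all genes, and some of the 18 had few reads. These counts therefore give no direction for the family. KRT5 and KRT19 were among the genes higher in both. KRT19 differed by 0.29 in clone 3 and by 3.98 in clone 4 on the log2(count + 0.5) scale, the latter from 0 to 7 raw counts. KRT5 differed by 3.44 in clone 3 and 2.72 in clone 4 on that scale, from 0 to 5 and from 13 to 85 raw counts. The log2 fold change of KRT5 was 2.84 (SE 1.83, DESeq2 adjusted p = 0.9999). With the clone as a block, 2 keratins (KRT5 and KRT86) had an unadjusted p under 0.05 in DESeq2, and 3 (KRT5, KRT86 and KRT81) in edgeR. None passed the adjustment in either.

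Keratin filaments are anchored at desmosomes and hemidesmosomes, and the genes of these junctions were compared between the clones in the same fit. Of 17 tested, 1 was called higher in clone 4 than in clone 3 and 6 lower, beside 3.31% of all genes called higher and 6.52% called lower. The median log2 fold change was -0.25, against 0.00 over all genes. DSP, which encodes desmoplakin, the protein that ties keratins to the desmosome, was at 6152 in parental cells, 5471 and 7423 in clone 3, and 54.9 and 26.4 in clone 4. Clone 3 was at the parental level and clone 4 was far below both (log2 fold change against clone 3 -7.38, SE 0.70, DESeq2 adjusted p = 5.035e-24).

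PKP3 (plakophilin 3) was at 287 in parental cells, 380.5 and 434.8 in clone 3, and 52.9 and 93.1 in clone 4, a clone difference of -2.53 (SE 0.36). JUP was at 1694 in parental cells, 1058 and 846 in clone 3, and 440.5 and 503.6 in clone 4, a clone difference of -1.01 (SE 0.24). DSC2 and ITGB4 averaged under 100 normalized counts and were picked out after their values were seen. DSC2, which encodes the desmosomal cadherin desmocollin 2, was at 6.04 in parental cells, 136.1 and 132.4 in clone 3, and 1.02 and 0 in clone 4, so that clone 3 was above and clone 4 below the parental library, as for KRT19. Its clone difference was -8.03 (SE 1.52, DESeq2 adjusted p = 4.407e-06). ITGB4, which encodes the integrin beta 4 chain of the hemidesmosome, was at 89.6 in parental cells, 147.2 and 179.9 in clone 3, and 10.2 and 9.52 in clone 4, a clone difference of -4.05 (SE 0.60). ITGA6, the remaining lower call, had a clone difference of -0.61 (SE 0.18). Listed genes that were not called included DSG2 (-0.27), PLEC (-0.25), PKP4 (0.27), PKP2 (0.30) and PERP (0.31). ITGA6 and these genes were also named after their values were seen. DST, which encodes dystonin of the hemidesmosome, went the other way, from 5067 in parental cells to 7631 and 9564 in clone 3 and 13489 and 17941 in clone 4. EPCAM, given above, fell with DSP and KRT19 in clone 4 (log2 fold change against clone 3 -9.74, SE 1.45, DESeq2 adjusted p = 1.123e-09).

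Of 12 other intermediate filament genes tested, 1 was called higher in clone 4 than in clone 3 (SYNM, synemin, 1.07) and 1 lower (NES, nestin, -1.42), beside 3.31% of all genes called higher and 6.52% called lower. VIM, which encodes vimentin, the filament protein of mesenchymal cells, was at 83091 in parental cells, 33551 and 37558 in clone 3, and 37552 and 40141 in clone 4. Every EIR library was below the parental one, with log2 fold changes of -1.22 (SE 0.16) in clone 3 and -1.10 (SE 0.16) in clone 4, and the clones differed by 0.12 (SE 0.15, DESeq2 adjusted p = 0.8209). Of 9 epithelial regulators tested, 1 was called higher in clone 4 than in clone 3 (TFAP2A, a transcription factor of epithelia, 0.69) and 0 lower, beside 3.31% of all genes called higher and 6.52% called lower.

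**Figure D5:**
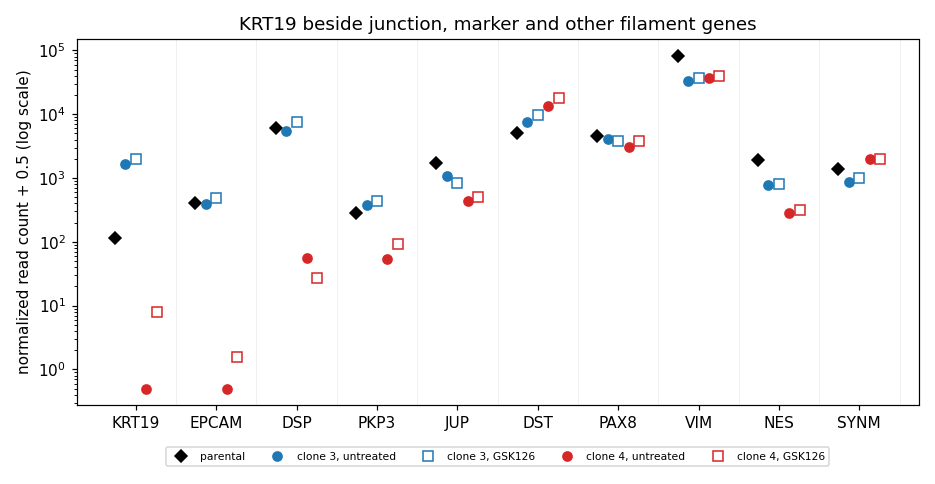
Normalized read counts (plus 0.5, log axis) of KRT19 beside EPCAM, desmosome and hemidesmosome genes, PAX8 and other filament genes, 1 point per library. KRT19, EPCAM and DSP are lowest in the 2 clone 4 libraries, whereas PAX8 stays between 3083 and 4523 and VIM is highest in the parental library.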

How the data were processed

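The keratins and gene lists were chosen with earlier results of these data known. RNA was sequenced from TruSeq stranded total RNA libraries, and the authors aligned reads to hg19 with bowtie2 and deposited RSEM estimated counts per Ensembl gene, with use of strand not stated. The counts were whole numbers and were used as given, and symbols were taken from GENCODE release 44 on GRCh37 (95.8% of identifiers matched). Comparisons were fitted over all genes with DESeq2 1.42.0 (R 4.3.3, two-sided Wald test, Benjamini-Hochberg adjustment, threshold 0.05), with all 5 libraries for contrasts with parental and the 4 EIR libraries, with treatment as a covariate, for clone 4 against clone 3. GSK126 was tested without a block. Libraries of the same clone share their number, and their deviations correlated (r = 0.862 over 11564 genes). edgeR 4.0.16, other scalings, a low-count filter, a GC correction and leaving out each library were alternatives. Scripts were tested on simulated data. Named genes were all keratins that averaged 10 or more normalized counts or reached 10 in 1 library, plus, from each of the junction, filament and regulator lists, the 4 called genes with the largest clone difference among those averaging 100 or more normalized counts, and VIM. EPCAM, PAX8 and NAPSA came from the marker list. Intervals and floors cover counting error only, and p-values measure the spread between these libraries.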

Additional observations from a re-analysis of the deposited data

Results flagged for a closer look

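Among the 18 keratins, 1 group of 4 EIR libraries had a library far from the others: KRT5 in GSK126-treated clone 4, at 89.93 normalized counts, with a gap of 0.853 of the range. Chance flags about 1 in 20 groups. The clones differed in 7 keratins by the test of the difference itself, with log2 fold changes of clone 4 against clone 3 of -10.19 for KRT19, -3.91 for KRT23, -2.24 for KRT222, -0.65 for KRT8, 1.62 for KRT81, 2.11 for KRT86 and 4.72 for KRT5. Whether other lines or clones behave in the same way was not tested.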

How the results depend on the processing

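In EIR against parental, 6 keratins were called; edgeR called 1 and summing the libraries of each clone gave 3, beside 4157, 2024 and 1914 of all genes. Leaving out 1 library gave 4 to 7 keratins there, 2 to 8 in clone 3 against parental (2 without the treated and 4 without the untreated clone 3 library), 4 to 7 in clone 4 against parental (4 without either clone 3 library) and 4 to 7 in clone 4 against clone 3 (4 without the untreated clone 3 library). KRT19 in clone 4 against clone 3 ranged from -13.25 to -7.95 when 1 library was left out, and lost its call at -9.10 and -8.82 without either clone 3 library. The clone fits without a library were made without the treatment covariate, chosen after seeing the data, since no residual freedom was left with it. For the 27 other keratin calls, 243 of 280 values under all alternatives kept their call, 37 lost it and 0 reversed. Of these 27 calls, 18 were lost under at least 1 alternative. Several alternatives differ little from the main fit. Fits that gave no adjusted p are not counted, namely KRT5 between the clones without the treated clone 4 library and KRT25 in clone 4 against parental without the treated clone 3 library. The balance ratio of 0.737 lay between 0.661 and 0.796 under every alternative. The clone as replicate block changed no keratin call: 0 keratins passed with or without it. With 1 parental library, parental cells could not be left out.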
